A study of Homo sapiens with 6 samples.

Results

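The interferon-gamma (IFN-γ) receptor and the JAK-STAT-SOCS genes were examined in TFK1 cells, a cell line from a human extrahepatic bile duct carcinoma. The 10 genes were chosen by name, as the rows of the expression table with the symbols IFNGR1, IFNGR2, JAK1, JAK2, STAT3, STAT5A, STAT5B, STAT6, SOCS2 and SOCS3, out of 23569 genes in all. RNA-seq was performed on negative control TFK1 cells (oeNC, n = 3 libraries) and on TFK1 cells with STUB1 overexpression (oeSTUB1, n = 3), and neither group received a further treatment. STUB1, also called CHIP, is a chaperone-dependent E3 ubiquitin ligase. Cells were transduced with lentivirus and selected with puromycin, and the study looked for tumor suppressor genes controlled by the STUB1-UHRF1/DNMT1 axis. Nothing in the labels says that the libraries of a group came from separately transduced populations, so the p-values measure the spread between these libraries, which may be technical. If each group is 1 transduced population, a difference between populations cannot be told apart from one due to STUB1.

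IFN-γ binds a receptor of IFNGR1 chains, which hold the ligand, and IFNGR2 chains, which are needed for signalling. The Janus kinases JAK1 and JAK2 sit on the receptor tails and, once brought together, phosphorylate the receptor and STAT proteins, which pair, enter the nucleus and switch on genes. Among the STAT proteins studied here, STAT3 follows IL-6 family cytokines, STAT5A and STAT5B follow growth hormone, prolactin and interleukins, and STAT6 follows IL-4 and IL-13. SOCS proteins are made in response and shut the pathway down, SOCS3 mainly at receptors of the IL-6 family and SOCS2 at the growth hormone receptor. In bile duct cancers the IL-6 and STAT3 arm is the one best known.

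Expression was given by the authors as FPKM, which scales the fragments of a gene by its length and by the library total, so that levels can be compared between genes. Library totals recovered from the FPKM steps lay between 33106564 and 36744521 fragments. The overexpressed gene itself, STUB1, averaged 32.3 ± 1.23 FPKM without and 66.1 ± 7.70 FPKM with the construct (SD, n = 3 each), and the groups did not overlap. STUB1 shares 42.4% of its exon bases with JMJD8 on the opposite strand, whose mean was 30.3 and 36.5 FPKM. The oeSTUB1 replicate 2 library stood apart from the rest of its group, with chi-square values of 82.6 and 76.7, each divided by its degrees of freedom, against the other oeSTUB1 libraries, where the remaining pairs of replicates gave 3.48 to 10.4. Results that change without it are given both ways. Of 10 bile duct epithelium markers, KRT7, KRT8, KRT18, CDH1 and SPP1 had group means between 30.04 and 3964 FPKM, whereas KRT19 was at 0.453 and 2.97 FPKM and CFTR was at 0.00964 FPKM or less in every library. Markers of leukocytes, which express many of the genes below, summed to 5.91 to 8.999 FPKM in oeNC and 7.19 to 8.05 FPKM in oeSTUB1 libraries over 10 genes, most of it CD14. None of their 5 tested genes passed the test described below, where 13.6% of all tested genes did. PTPRC, CD3E and MS4A1 stayed at or below 0.280 FPKM in every library. In single libraries LYZ reached 1.83, ITGAM 0.712, NKG7 0.364 and CD3D 0.353 FPKM.

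STAT5B, STAT5A and STAT3 lie side by side on chromosome 17 of GRCh38 in GENCODE release 29, STAT5B on the minus strand at chr17:42199168-42276707, STAT5A on the plus strand at chr17:42287547-42311943 and STAT3 on the minus strand at chr17:42313324-42388568. All 10 genes are annotated as protein coding. The bases before the starts of these neighbours are shown because STAT5A and STAT3 differed between the groups in these data and STAT5B, at the outer end of the 3 and next to STAT5A, was not called. Each sequence is 250 bases upstream of a RefSeq start on GRCh38.p14, 5′ to 3′ on the strand of the gene, with CpG dinucleotides, the sites of DNA methylation, in capitals. They are chr17:42388443-42388692 for STAT3, chr17:42287297-42287546 for STAT5A and chr17:42276392-42276641 for STAT5B. Of the 3 STAT5A starts that RefSeq lists, the one that coincides with the GENCODE start is shown. The RefSeq starts of STAT3 and STAT5B lie inside the GENCODE genes. The STAT5B stretch is thus wholly and the STAT3 stretch partly within its GENCODE gene, so the 3 stretches differ in position.
STAT3: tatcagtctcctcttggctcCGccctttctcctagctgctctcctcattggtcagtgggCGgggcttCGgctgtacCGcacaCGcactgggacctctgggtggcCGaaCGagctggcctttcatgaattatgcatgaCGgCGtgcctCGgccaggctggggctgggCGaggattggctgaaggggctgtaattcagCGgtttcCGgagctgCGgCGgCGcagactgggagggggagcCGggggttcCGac
STAT5A: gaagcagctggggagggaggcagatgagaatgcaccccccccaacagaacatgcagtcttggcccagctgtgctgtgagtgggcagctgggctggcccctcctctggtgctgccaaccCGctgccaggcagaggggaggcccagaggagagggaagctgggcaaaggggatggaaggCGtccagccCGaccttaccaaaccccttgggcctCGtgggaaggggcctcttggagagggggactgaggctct
STAT5B: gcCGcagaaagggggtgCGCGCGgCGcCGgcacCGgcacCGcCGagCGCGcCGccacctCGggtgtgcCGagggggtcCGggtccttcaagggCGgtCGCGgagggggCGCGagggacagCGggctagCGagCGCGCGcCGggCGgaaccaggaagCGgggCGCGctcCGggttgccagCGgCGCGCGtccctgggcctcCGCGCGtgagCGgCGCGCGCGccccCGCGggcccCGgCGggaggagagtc
The STAT3 stretch holds 18 CpG, that of STAT5A 4 and that of STAT5B 47. In the full windows of 300 bases, which run 50 bases past the start, the counts were 23, 5 and 55, where the median of 35116 promoters of that length was 14. The 2 other STAT5A starts had 3 and 37 CpG in their windows, and the FPKM values do not tell which start was used. RefSeq promoters were found for 9 of the 10 genes, with 18 starts in all. The sequence TTCNNNGAA, the core bound by STAT dimers, which reads the same on both strands, was found in none of these 18 windows and in 7.66% of the 35116 promoters.

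The receptor chains and kinases of the IFN-γ pathway were expressed in both groups, and none of them passed the test. In oeNC cells the levels ran from JAK1, with the highest mean of the 10 genes at 44.8 ± 2.39 FPKM (SD, n = 3), through STAT6 at 30.03 ± 0.907, STAT3 at 21.8 ± 0.683, IFNGR1 at 15.7 ± 1.94, IFNGR2 at 14.5 ± 0.366, STAT5B at 8.58 ± 0.198, SOCS3 at 6.88 ± 2.44, JAK2 at 2.35 ± 0.139 and SOCS2 at 1.85 ± 0.120 down to STAT5A at 0.0615 ± 0.0348 FPKM. The libraries of neighbours in this order overlapped for IFNGR1 with IFNGR2 and for STAT5B with SOCS3, and not for the other neighbours. In oeSTUB1 cells STAT3, at 33.2 ± 4.73 FPKM, stood above STAT6, at 25.4 ± 2.13 FPKM (SD, n = 3 each), with no overlap between their libraries. The rest of the order was as in oeNC, with overlaps for IFNGR1 with IFNGR2 and for JAK2 with SOCS2.

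**Figure D1:**
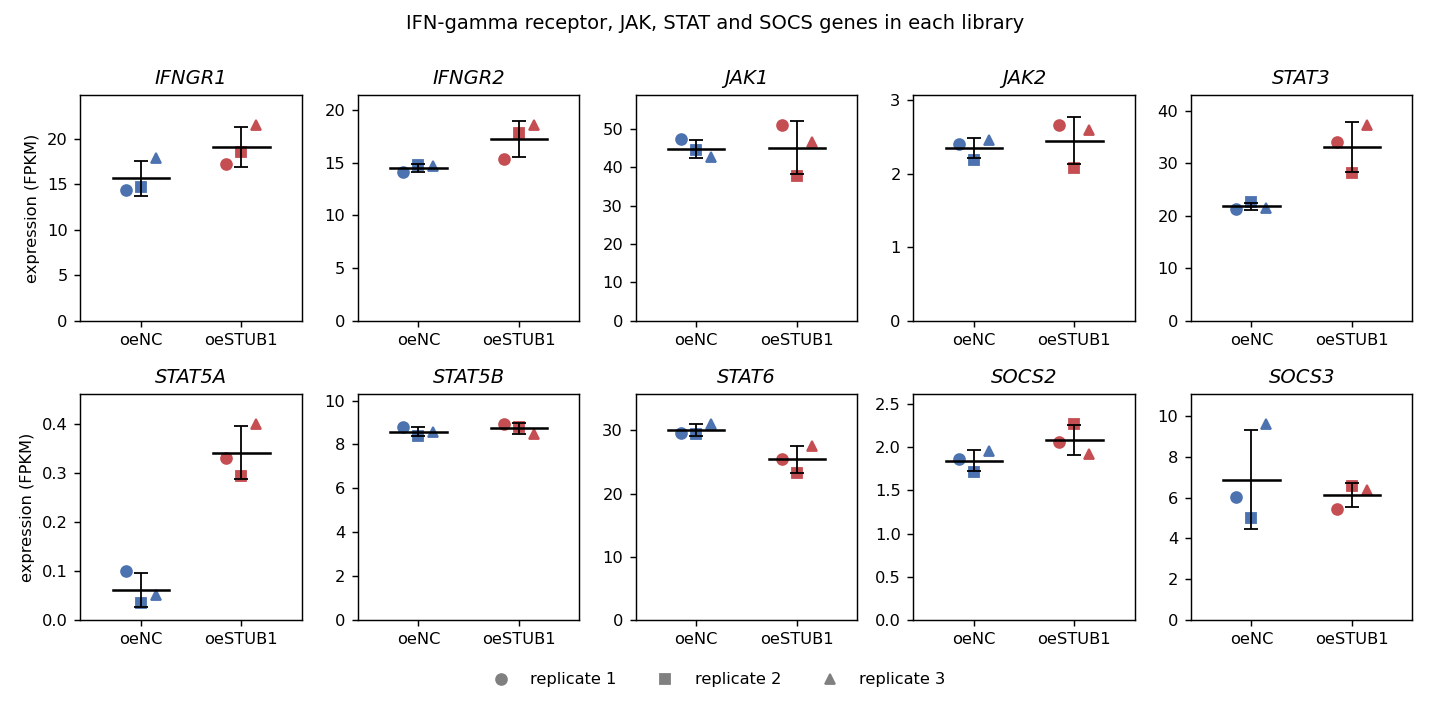
Expression in FPKM (vertical axes, from 0) of the 10 genes in the 3 oeNC (blue) and 3 oeSTUB1 (red) libraries, with a marker for each replicate, a bar at the group mean and whiskers of 1 SD. IFNGR2, STAT3 and STAT5A lay higher in every oeSTUB1 library than in any oeNC library, and STAT6 lay lower.

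Groups were set against each other with limma, on log2 of FPKM plus 0.1, in a fit over the 15353 genes whose mean reached 0.1 FPKM. A gene was called where its p-value, adjusted by Benjamini-Hochberg over that whole set, was under 0.05. All 10 genes passed this filter, STAT5A through its oeSTUB1 libraries only. Of the 10, 2 were called higher in oeSTUB1 cells, STAT3 and STAT5A, and 0 were called lower, while 8 were not called. Over all tested genes 13.6% were called, 7.01% as higher and 6.59% as lower. At an unadjusted p-value under 0.05 limma gave 5 of the 10, beside 29.7% of all tested genes. With limma-voom on recovered fragments the counts were also 2 higher and 0 lower. The libraries of the groups did not overlap for 4 of the 10 genes, IFNGR2, STAT3, STAT5A and STAT6, against 38.8% of all tested genes. In bulk RNA fewer expressing cells and less RNA per cell cannot be told apart. The median log2 fold change was 0.11 over the 10 genes and 0.02 over all tested genes.

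IFNGR1, the ligand-binding chain, was at 14.4, 14.7 and 17.9 FPKM in oeNC replicates 1, 2 and 3 and at 17.3, 18.6 and 21.6 FPKM in oeSTUB1 replicates 1, 2 and 3. Its groups overlapped through oeNC replicate 3, and the log2 fold change was 0.29 with a 95% interval from 0.01 to 0.57 that is not adjusted for the number of genes (adjusted p = 0.15 from limma). IFNGR2, the signalling chain, was at 14.1, 14.8 and 14.7 FPKM in oeNC and at 15.4, 17.8 and 18.6 FPKM in oeSTUB1 libraries. Its groups did not overlap, with a log2 fold change of 0.25 (95% interval 0.03 to 0.46, adjusted p = 0.12 from limma). IFNGR2 shares 380 exon bases, or 12.8% of its own, with TMEM50B on the opposite strand, whose means were 4.50 and 6.20 FPKM, and no source used here gives the strand setting of the counting. The log2 ratio of IFNGR1 to IFNGR2 within a library was 0.10 ± 0.16 in oeNC and 0.15 ± 0.08 in oeSTUB1 cells (SD, n = 3 each, two-sided exact permutation p = 0.80), so the balance of the chains differed by less than the SD.

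JAK1, the kinase bound to IFNGR1 and to many other cytokine receptors, was at 47.3, 44.5 and 42.6 FPKM in oeNC and at 51.2, 37.7 and 46.5 FPKM in oeSTUB1 libraries. The oeSTUB1 libraries held both the highest and the lowest value, and the 95% interval of the log2 fold change ran from -0.27 to 0.27. JAK2, the kinase bound to IFNGR2, was at 2.40, 2.19 and 2.45 FPKM against 2.67, 2.08 and 2.59 FPKM, with an interval from -0.25 to 0.35. Both kinases had their lowest value in oeSTUB1 replicate 2. Without that library the log2 fold changes were 0.12 for JAK1 and 0.16 for JAK2 (adjusted p = 0.19 and 0.25 from limma). In the fit of all 6 libraries the log2 fold change of JAK2 was 0.05. JAK2 lies on chromosome 9, where in that same fit 403 of 604 tested genes had a log2 fold change above 0. The median over that chromosome was 0.16. The log2 ratio of JAK1 to JAK2 was 4.20 ± 0.12 in oeNC and 4.15 ± 0.06 in oeSTUB1 cells (SD, n = 3 each, exact permutation p = 0.60).

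STAT3, which carries IL-6 family signals, rose after STUB1 overexpression. It was at 21.4, 22.6 and 21.5 FPKM in oeNC and at 34.0, 28.1 and 37.4 FPKM in oeSTUB1 libraries. The lowest oeSTUB1 value, again that of replicate 2, was above the highest oeNC value, and the group means differed 1.52-fold. The log2 fold change was 0.59 (standard error 0.11, 95% interval 0.34 to 0.85, adjusted p = 0.012 from limma). The values rested on 3774 to 4023 fragments in the oeNC and 4729 to 6505 in the oeSTUB1 libraries. Leaving out oeSTUB1 replicate 2 raised the estimate to 0.71 (limma adjusted p = 0.00029). The call was lost without oeNC replicate 1 (adjusted p = 0.060) and without oeNC replicate 3 (adjusted p = 0.057 from limma), at log2 fold changes of 0.58 in each of these fits. 

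STAT5A rose from a very low level. Its oeNC mean was under 0.1 FPKM, so it passed the filter only through the oeSTUB1 libraries, where it was high, and with no filter on low values it was also called (limma adjusted p = 0.010). It was at 0.1005, 0.0335 and 0.0506 FPKM in oeNC and at 0.331, 0.295 and 0.401 FPKM in oeSTUB1 libraries. These values stand for 15, 5 and 8 fragments against 49, 42 and 59, so that no library was at or below 3 fragments and the groups did not overlap. The group means differed 5.56-fold, and the log2 fold change on the scale with a pseudocount of 0.1 was 1.47 (standard error 0.25, 95% interval 0.89 to 2.04, adjusted p = 0.0078 from limma). Adding 1 in place of 0.1 before the log gave 0.34, adding 0.01 gave 2.40, and the value was 2.54 with limma-voom on recovered fragments, with the gene called in each of these fits (adjusted p = 0.0084, 0.014 and 0.0047). STAT5A was the only one of the 10 that also had an absolute log2 fold change over 1, against 5.2% of all tested genes that passed both limits.

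STAT5B, the close relative of STAT5A, was at 8.79, 8.40 and 8.56 FPKM in oeNC and at 8.95, 8.77 and 8.47 FPKM in oeSTUB1 libraries, with overlapping groups and a 95% interval of the log2 fold change from -0.15 to 0.20. STAT5A made up 0.705% ± 0.380 of the summed FPKM of both STAT5 genes in oeNC and 3.78% ± 0.665 in oeSTUB1 cells (SD, n = 3 each). The sum itself was 8.65 ± 0.232 and 9.07 ± 0.207 FPKM, with overlapping libraries. The log2 ratio of STAT5A to STAT5B was higher by 1.44 in oeSTUB1 cells and did not overlap between the groups (two-sided exact permutation p = 0.10, the smallest that 3 libraries against 3 allow, adjusted p = 0.40 over 4 ratios). The coding sequences of both genes are much alike, and how reads that match several places were counted was not stated, so STAT5A values at this level are uncertain.

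STAT6, which carries IL-4 and IL-13 signals, was at 29.6, 29.4 and 31.1 FPKM in oeNC and at 25.4, 23.2 and 27.5 FPKM in oeSTUB1 libraries. Every oeSTUB1 library was below every oeNC library, and limma put the log2 fold change at -0.24 (95% interval -0.44 to -0.05, adjusted p = 0.099). Without oeSTUB1 replicate 2 the gene was called lower, at -0.18 on the log2 scale (limma adjusted p = 0.044), in a fit that called 26.8% of all tested genes. STAT6 lies on chromosome 12 at chr12:57095408-57132139 on the minus strand.

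The inhibitors SOCS2 and SOCS3 gave no difference beyond their spread. SOCS2, an inhibitor of growth hormone signalling, was at 1.87, 1.72 and 1.95 FPKM in oeNC and at 2.06, 2.27 and 1.92 FPKM in oeSTUB1 libraries (log2 fold change 0.17, 95% interval -0.11 to 0.44). SOCS2 shares 277 exon bases with SOCS2-AS1 on the opposite strand, which was at 1.71 and 2.05 FPKM in the group means. SOCS3, a feedback inhibitor that STAT3 itself switches on, was at 6.01, 5.0003 and 9.64 FPKM in oeNC and at 5.44, 6.56 and 6.40 FPKM in oeSTUB1 libraries. Replicate 3 of oeNC was the highest of all 6 libraries, and the interval of its log2 fold change, from -0.63 to 0.40, was wider than that of the other genes apart from STAT5A. Without oeNC replicate 3 the direction turned, to 0.15 on the log2 scale (limma adjusted p = 0.56). FOS, an immediate early gene, was at 13.3, 13.3 and 24.1 FPKM in the oeNC libraries, with the highest value in the same library. The log2 ratio of SOCS2 to SOCS3 was -1.79 ± 0.40 in oeNC and -1.51 ± 0.16 in oeSTUB1 cells (SD, n = 3 each, exact permutation p = 0.40).

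**Figure D2:**
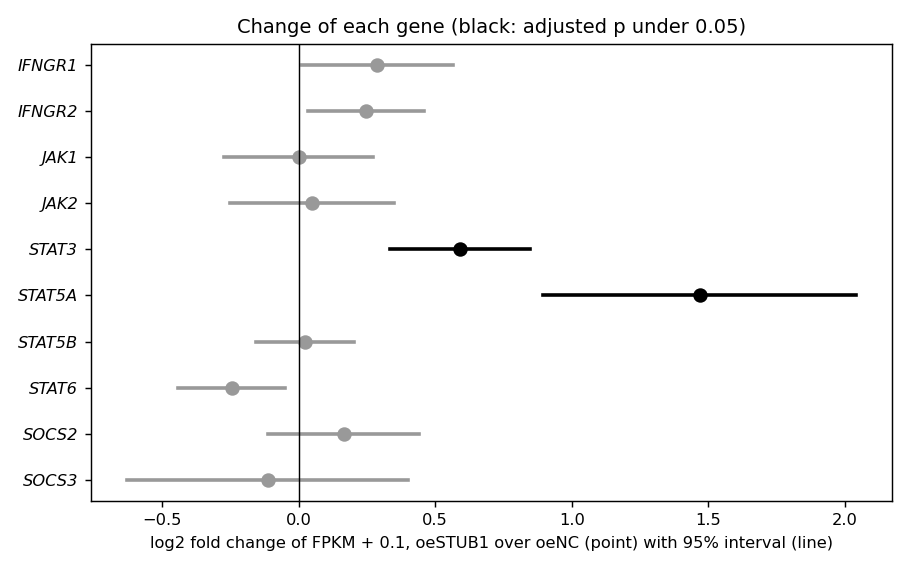
Log2 fold change of FPKM + 0.1, oeSTUB1 over oeNC (horizontal axis), for the 10 genes, with points for the limma estimate and lines for the 95% interval, black where the adjusted p-value was under 0.05. The intervals of STAT3 and STAT5A lie above 0 and start at 0.34 and 0.89, while those of the other 8 genes lie nearer to 0 or cross it.

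The other members of the JAK, STAT and SOCS families were read from a list of 11 genes, all of which were tested. Of these, 0 were called higher and 1, STAT4, was called lower. That is 9.09% in either direction, beside 13.6% of all tested genes. STAT4, which carries IL-12 signals, averaged 9.71 ± 0.638 FPKM in the controls and fell to 6.14 ± 0.481 FPKM (SD, n = 3 each), or by 0.65 on the log2 scale (limma adjusted p = 0.0045). STAT4 lies on chromosome 2, where 234 of 1031 tested genes had a log2 fold change above 0 and the median was -0.21. The part of that shift in its value was not tested. JAK3 was at 0.637 ± 0.114 and 0.408 ± 0.0676 FPKM and TYK2 at 8.49 ± 0.0652 and 8.28 ± 1.19 FPKM. STAT2, SOCS1, SOCS4, SOCS5, SOCS6, SOCS7 and CISH had log2 fold changes between -0.16 and 0.55, the highest in SOCS1, which had at most 13 fragments in any library.

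Of 22 cytokine receptors that use these kinases 17 were tested, of which 1 was called higher and 2 lower, or 17.6% in either direction beside 13.6% of all tested genes. IL22RA1, a chain of the IL-22 receptor, fell from 2.62 ± 0.232 to 1.47 ± 0.160 FPKM, and IL6R, the IL-6 binding chain, fell from 2.65 ± 0.116 to 1.52 ± 0.420 FPKM. IL13RA1, which pairs with the IL-4 receptor, rose from 21.4 ± 0.723 to 26.1 ± 1.36 FPKM (SD, n = 3 each, adjusted p = 0.0065, 0.036 and 0.046 from limma). IL6ST, the shared signalling chain of the IL-6 family, was at 30.3, 32.3 and 34.7 FPKM in oeNC and at 42.9, 25.0 and 47.3 FPKM in oeSTUB1 libraries, where replicate 2 was the lowest of all 6. Without oeSTUB1 replicate 2 the counts were 4 higher and 3 lower, and without oeNC replicate 1 or 3 or oeSTUB1 replicate 1 they were 0 higher and 1 lower. They were 1 and 1 without oeNC replicate 2, and 0 and 2 without oeSTUB1 replicate 3. With all 6 libraries kept, the higher count was 0 with median-ratio or quantile scaling, no variance trend or a replicate block. The lower count was 1 with no filter, no variance trend or a replicate block. A correction for gene length gave 2 higher and 4 lower.

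Among 18 ligands, 11 were listed and 4 were tested, of which 2 were called higher and 0 lower. The share called higher was 50% of only 4 genes, beside 7.01% of all tested genes. IFNG was not analysed here. IL11, a ligand of the IL-6 family that signals through IL6ST and STAT3, rose from 1.82, 1.54 and 0.996 FPKM in oeNC to 11.01, 13.9 and 5.59 FPKM in oeSTUB1 libraries, a 7.01-fold difference of means (log2 fold change 2.67, standard error 0.34, adjusted p = 0.0023 from limma). IL6 had 0, 0 and 6 fragments in the oeNC and 28, 18 and 23 in the oeSTUB1 libraries (adjusted p = 0.013 from limma). IL6 too reached the filter only through the oeSTUB1 libraries, and with no filter limma gave an adjusted p of 0.012. The count was 1 higher without oeNC replicate 1 or 2 or oeSTUB1 replicate 1. These fits called 965, 933 and 1407 of all 15353 tested genes, against 2088 with no library left out. LIF, the most abundant of the ligands tested, was at 27.0, 26.9 and 33.8 FPKM against 24.1, 24.3 and 24.5 FPKM and was not called. Of 20 regulators, all tested, NMI, a binding partner of STAT proteins, rose from 3.19 ± 0.391 to 5.71 ± 0.578 FPKM and SH2B2, an adaptor of JAK2, fell from 5.90 ± 0.443 to 3.26 ± 0.749 FPKM (SD, n = 3 each, adjusted p = 0.0054 and 0.016 from limma). The other 18, with the PIAS, PTPN and Cullin-RING genes among them, were not called. The share of regulators called in either direction was 10%, beside 13.6% of all tested genes. Without oeSTUB1 replicate 2 the count of lower regulators was 4, and without oeNC replicate 2 or 3 it was 0. Over all tested genes these fits called 4112, 933 and 1041.

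Among genes known to respond to IFN-γ, those called were all higher in oeSTUB1 cells. Of 27 such genes 19 were tested, 9 were called higher and 0 lower, which is 47.4% of those tested beside 7.01% of all tested genes, and the median log2 fold change was 0.52. At an unadjusted p-value under 0.05 limma gave 12 of the 19, beside 29.7% of all tested genes. PSMB8, a subunit of the immunoproteasome, rose from 2.15, 2.23 and 2.02 FPKM in oeNC to 7.38, 9.59 and 7.50 FPKM in oeSTUB1 libraries (log2 fold change 1.88, standard error 0.12, adjusted p = 0.00017 from limma). The guanylate-binding protein genes GBP1, GBP2 and GBP3 rose by 2.46, 1.44 and 1.64 on the log2 scale, GBP1 from 2, 8 and 15 fragments to 87, 83 and 87. Of the 19 tested, GBP1 alone reached the filter only through the oeSTUB1 libraries, and with no filter limma gave it an adjusted p of 0.0049. ICAM1, an adhesion molecule, rose from 0.439 ± 0.148 to 1.61 ± 0.433 FPKM and APOL1 from 4.18 ± 0.234 to 7.78 ± 0.695 FPKM (SD, n = 3 each). The transcription factor IRF1, the light chain gene B2M and the tRNA synthetase gene WARS1 were the other 3, with log2 fold changes of 0.79, 0.49 and 0.29. The remaining 10 tested genes, which include TAP1, PSMB9, HLA-E, CD274 and NLRC5, were not called, and 8, such as CXCL9, CXCL10 and CIITA, were below the filter. Without oeNC replicate 1 and without oeNC replicate 2 the count was 6 higher in each fit, and without oeSTUB1 replicate 2 it was 11 higher and 1 lower. These fits called 965, 933 and 4112 of all 15353 tested genes, against 2088 with no library left out. Of the leukocyte markers, whose cells express many of these genes, 0 of 5 tested were called, beside 13.6% of all tested genes. Only 5 genes cannot set a count of 0 apart from that share. The summed levels of the leukocyte list overlapped between the groups as given above. These sums are mostly CD14, and 4 of the 5 had a log2 fold change above 0. A part of leukocyte RNA in the target genes was not tested.

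**Figure D3:**
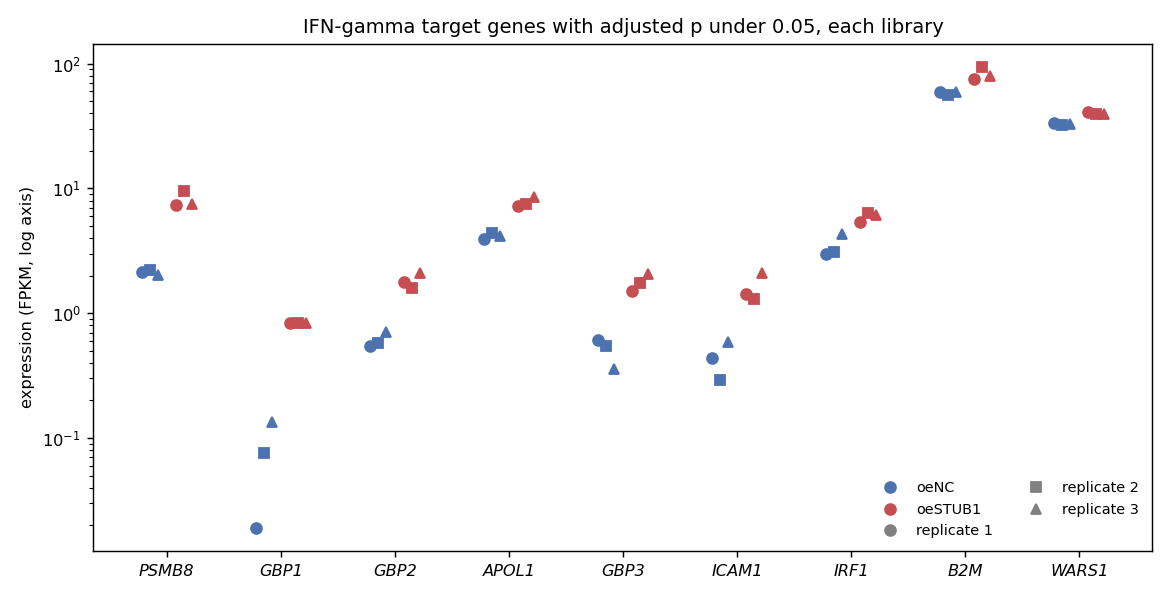
Expression in FPKM (vertical log axis) of the 9 IFN-γ target genes called higher, in the 3 oeNC (blue) and 3 oeSTUB1 (red) libraries, with a marker for each replicate. In each of the 9 genes every oeSTUB1 library lies above every oeNC library, which the choice of called genes favours. Of all 19 tested target genes this held for 14, beside 21.5% of all tested genes.

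Target genes of STAT3, STAT5 and STAT6 moved both ways. Of 21 genes 18 were tested, 8 were called higher and 2 lower, which is 44.4% and 11.1% of those tested beside 7.01% and 6.59% of all tested genes, with a median log2 fold change of 0.24. FOS fell from 16.9 ± 6.27 to 4.33 ± 0.168 FPKM (log2 fold change -1.88, adjusted p = 0.0015 from limma) and the kinase gene PIM1 from 16.9 ± 1.53 to 11.8 ± 1.04 FPKM (SD, n = 3 each). The acute phase genes SERPINA3 and SAA1 rose by 1.07 and 1.84 on the log2 scale, CDKN1A, a cell cycle inhibitor, rose by 0.43, and TIMP1, a protease inhibitor, rose by 0.70. BCL3, MCL1, CEBPD and CCL26 were the other genes called higher. SOCS3, which STAT3 induces, is counted among the 10 and was not called. The count of higher genes fell to 3 without oeNC replicate 1, 2 or 3 and to 4 without oeSTUB1 replicate 3, and the count of lower genes was 1 without oeNC replicate 2 or 3. Of all 15353 tested genes, 933 to 1041 were called without an oeNC library and 1615 without oeSTUB1 replicate 3. With no library left out 2088 were called. CCND1, MYC, JUNB, VEGFA, BIRC5, BCL2L1, BCL6 and LRG1 were not called.

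**Figure D4:**
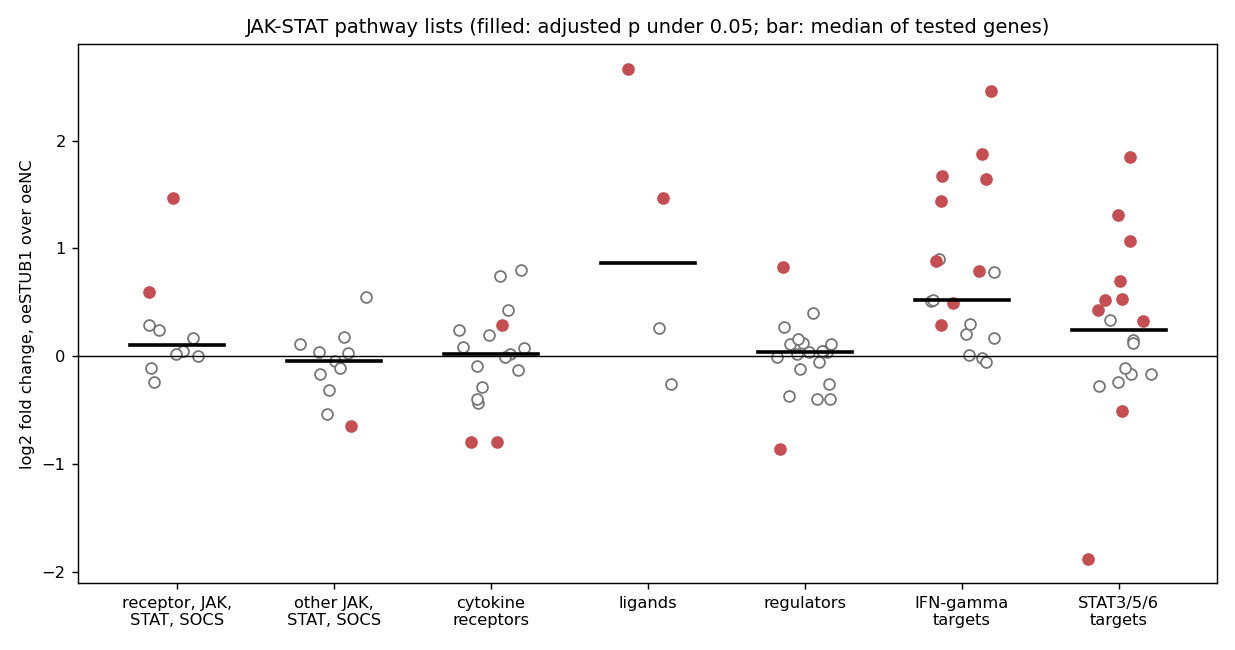
Log2 fold change, oeSTUB1 over oeNC (vertical axis), of each tested gene in 7 lists, filled where the adjusted p-value was under 0.05, with a bar at the median of the list. The IFN-γ target list has 9 filled points, all above 0, and the list of the receptor, JAK, STAT and SOCS genes has 2.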

How the data were processed

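Per the labels, total RNA of 6 TFK1 libraries was sequenced, 3 oeNC and 3 oeSTUB1, and the columns of the table were matched to samples by title. There were 0 value columns without a sample. What the authors deposited was 1 FPKM value per library for each of 23569 gene symbols. The submitters' processing notes name fastp 0.20.1, HISAT2 2.1.0, HTSeq 0.11.2, R 3.2.0, DESeq2 1.22.2 and GRCh38.p13, without roles. The annotation and the strand setting were not given in the sources used here. Whole fragments were recovered for 23569 genes from the FPKM steps (tolerance 2e-05 plus 2e-08 of the number), at the smallest whole length, which can leave a gene's fragments understated by a whole factor, as may hold for STAT6. Recomputed FPKM differed by at most 4.9e-06. Totals of 33106564 to 36744521 fragments limit the precision of low genes, and fragment numbers cover counting error only.

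The groups were compared in R 4.3.3 with limma 3.58.1, using lmFit and eBayes with its trend option and two-sided p-values, after taking log2 of FPKM plus 0.1. Genes had to average 0.1 FPKM or more, which left 15353. This scale understates changes of low genes. Ratios were compared by exact permutation. The members and lists were chosen with earlier results of these data known, and list counts are descriptions with no test. The genes named are all 10 members, the tested genes of the other JAK, STAT and SOCS list, and up to 6 called genes of each further list by smallest adjusted p-value; those beyond this rule (SOCS2-AS1, TMEM50B, IL6ST, LIF and uncalled or further called list genes) were named after their values were seen. Some listed genes enter the counts and are not reported here by name. As alternatives, 1 or 0.01 was added before the log, the filter was dropped or set to 1 FPKM, and the other settings were median-ratio and quantile scaling, no variance trend, a replicate block, each library left out, limma-voom on recovered fragments and a minimum log2 fold change of 1. A lowess correction for gene length, and the list counts under every setting, were added after the data were seen. On simulated data with 200 genes changed 4-fold, all 6 totals and the fragments of 98.88% of 22619 genes were recovered, and 200 of the 200 were called among 15328 tested, with 9 unchanged genes called. All simulated libraries had the same spread, with none set apart as oeSTUB1 replicate 2 was. The changed genes had means above that of STAT5A, and changes as small as that of STAT3 were not simulated. These counts therefore do not give the error rates in the real libraries. Gene positions are from GENCODE release 29 (GRCh38), chromosomes (96.7% of tested genes by symbol) and promoters from RefSeq (GRCh38.p14). Python 3.11.15 was used for the other steps.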

Additional observations from a re-analysis of the deposited data

How the results depend on the processing

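Of 159 values of the 10 genes under other settings, 146 kept their direction and their side of the threshold, 2 lost the call, 1 gained it and 10 changed direction. STAT3 was called in the fits other than those without oeNC replicate 1 or 3 (adjusted p from 0.00029 to 0.060 over all its settings), and STAT5A in every fit that held it (adjusted p from 0.0041 to 0.036). The direction of JAK1, whose change was near 0, turned with limma-voom (-6.7e-05), median-ratio scaling (-0.022) and quantile normalization (-0.065), and leaving out a library gave values of -0.10 to 0.12. JAK2 turned without oeSTUB1 replicate 1 (-0.014 to 0.158 with a library left out), STAT5B with quantile normalization (-0.0047) and SOCS3 without oeNC replicate 3 (-0.312 to 0.154 with a library left out). The log2 ratio of IFNGR1 to IFNGR2 differed by -0.0098 to 0.13 when a library was left out, with the sign turning without oeNC replicate 2. The cause of these turns was not tested.

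The number of members called higher was 1 with a filter at 1 FPKM, which removes STAT5A, 1 with a minimum log2 fold change of 1, and 1 to 2 with a library left out, and the number called lower was 0 to 1 with a library left out. Over all tested genes 1076 were called higher and 1012 lower. With a minimum log2 fold change of 1 these were 429 and 369, with the gene length correction 1675 and 1647, and with a library left out 477 to 2274 and 456 to 1838, highest without oeSTUB1 replicate 2 and lowest without oeNC replicate 2. With the replicate number as a block they were 741 and 747. The replicate block left the calls of the 10 genes as they were, with STAT3 at adjusted p = 0.028 and STAT5A at adjusted p = 0.019 from limma. Libraries with the same number did not deviate together (correlations of -0.05, -0.05 and 0.06), so the numbers were not taken to pair the samples.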

Other observations

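The genes around the STAT5B, STAT5A and STAT3 locus were examined after the values of STAT3 and STAT5A had been seen. Of the 5 tested genes on each side by RefSeq order, 10 in all, 1 was called, where 13.6% of all tested genes were called. That gene, CAVIN1, lies next to STAT3. CAVIN1, which encodes a coat protein of caveolae, averaged 37.5 ± 4.995 FPKM in the controls and 70.1 ± 7.76 FPKM with STUB1 overexpression (SD, n = 3 each), 0.90 higher on the log2 scale (limma adjusted p = 0.0032). KAT2A, RAB5C, KCNH4 and GHDC, on the side of STAT5B, had log2 fold changes between -0.06 and 0.17, and the other neighbours between -0.77 and -0.0035. Over chromosome 17 the median log2 fold change of 910 tested genes was -0.04.

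Of 11375 genes averaging 1 FPKM or more, those with a profile over the 6 libraries most like that of STAT5A were MAP7D2, SLCO3A1 and SERPINB7. Their root mean square differences from STAT5A on the centred log2(FPKM + 0.1) scale were 0.15, 0.16 and 0.18. MAP7D2 was at 0.597 ± 0.106 and 1.54 ± 0.0583 FPKM, SLCO3A1 at 2.04 ± 0.134 and 5.27 ± 0.411 FPKM, and SERPINB7 at 0.974 ± 0.107 and 2.52 ± 0.348 FPKM in oeNC and oeSTUB1 cells (SD, n = 3 each). The likeness is a description over 6 libraries in groups of 3.

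Markers of fibroblasts and endothelium, from fixed lists of 10 genes for each cell type, were low apart from single genes. The hepatocyte list summed to 112 to 117 FPKM in oeNC and 39.3 to 59.5 FPKM in oeSTUB1 libraries. In oeNC and oeSTUB1 cells CPS1 averaged 96.6 and 43.7 FPKM, ASGR1 5.96 and 1.05 FPKM, and HNF4A 10.8 and 5.20 FPKM. These 3 genes were called lower, by 1.17, 2.45 and 1.05 on the log2 scale, out of 4 tested. That is 75%, beside 6.59% of all tested genes called lower. SERPINA1, the other gene tested, was at 0.801 and 0.931 FPKM in oeNC and oeSTUB1 cells. Its log2 fold change was 0.20, and it was not called. ALB and APOB stayed at or below 0.0512 FPKM in every library. The fibroblast list summed to 7.19 to 8.89 FPKM in oeNC and 7.63 to 10.7 FPKM in oeSTUB1 libraries. Of its genes 0 of 3 tested were called, beside 13.6% of all tested genes. The endothelial list summed to 0.662 to 0.698 and 1.30 to 1.34 FPKM, with ESAM called higher. Of the bile duct epithelium list, 9 of 10 were tested, with KRT19 called higher and KRT8, KRT18, EPCAM, CDH1 and SPP1 among the genes called lower.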
